A study of Mus musculus with 7 samples.

Results

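Solute carriers are the genes of the Slc families, which code for most of the membrane proteins that move ions, sugars, amino acids, metals and metabolites across membranes without using ATP directly. They were taken as every gene whose symbol starts with Slc and a digit in the splicing tables of both replicate numbers: 114 of 6701 genes. An event here is a stretch of a gene that can be spliced into the RNA or left out, and 187 of 11814 events with unique coordinates in both tables lay in 104 of these genes. The other 10 had no such event (Slc15a2, Slc25a26, Slc25a45, Slc29a3, Slc30a4, Slc35a5, Slc3a2, Slc4a8, Slc6a11 and Slc8a3) and are counted but carry no values. The 104 genes belong to 35 families by number and are described in 16 roles, given by family number. A role's name need not fit each gene in it. Slc9a3r2, Slc7a6os and Slc4a1ap match the symbol pattern, do not code for transporters and were kept as a role of their own.

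RNA came from primary cortical cultures of wild-type ICR mice, prepared at embryonic day 16 and treated after 11 days in culture. KCl cultures received, for 10 min, medium of which 30% was a depolarization buffer with 170 mM KCl (a final 50 mM KCl), and control cultures received the same mix with 170 mM NaCl in the buffer. Cultures were then returned to their old medium and harvested after 24 h, so the comparison is of late differences after a short pulse of raised potassium. Each group had 2 libraries. The labels do not say whether these came from separate cultures, so the p-values measure the spread between these libraries, which may be technical.

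The gradients that most solute carriers draw on are set up by ATP-driven pumps, and many carriers couple their cargo to sodium, protons or chloride. In the cortex they remove glutamate and GABA from the synapse, fill synaptic vesicles, set the chloride gradient that decides the sign of GABA responses, and exchange glucose and lactate between vessels, astrocytes and neurons. Many of them are known in several spliced forms that differ in their ends or in short inserted segments.

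Counting both forms of all events, the libraries held 3566066 (control replicate 1), 5385345 (control replicate 2), 3643165 (KCl replicate 1) and 4666850 (KCl replicate 2) event reads, of which 46383, 52299, 54670 and 46262 fell in solute carrier events. The labelled cell type was present, but not alone. The neuron markers with an event, 7 of 11 listed (Dlg4, Gad1, Map2, Rbfox3, Snap25, Stmn2 and Syt1), summed to 7367 and 7241 CPM (counts scaled to the library size) in control and 661 and 2434 in KCl. Markers of the oligodendrocyte lineage (5 of 10 measured) summed to 317 and 341 in control and 1997 and 1094 in KCl, vascular and mesenchymal markers (3 of 9) to 431 and 517 against 2902 and 2240.2, progenitor markers (4 of 6) to 199 and 391 against 612 and 688, and astrocyte markers that are not solute carriers (3 of 7) to 2503 and 2063 against 3576 and 2836. None of the 6 microglia markers had an event. The KCl libraries were thus lower in the neuron sum and higher in the 4 other sums, and KCl replicate 1 was the lowest for neuron markers. Aldoc made up most of the astrocyte sum, at 2272 and 1611 CPM in control and 2695 and 2058 in KCl, which overlap. Tagln made up most of the vascular and mesenchymal sum, at 405 and 472 against 2750.5 and 2128. The progenitor markers Mki67 and Top2a also overlapped between the groups. Each other marker in these sums was apart in the direction of its list. The part of these differences in the solute carrier values below was not tested.

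**Figure D1:**
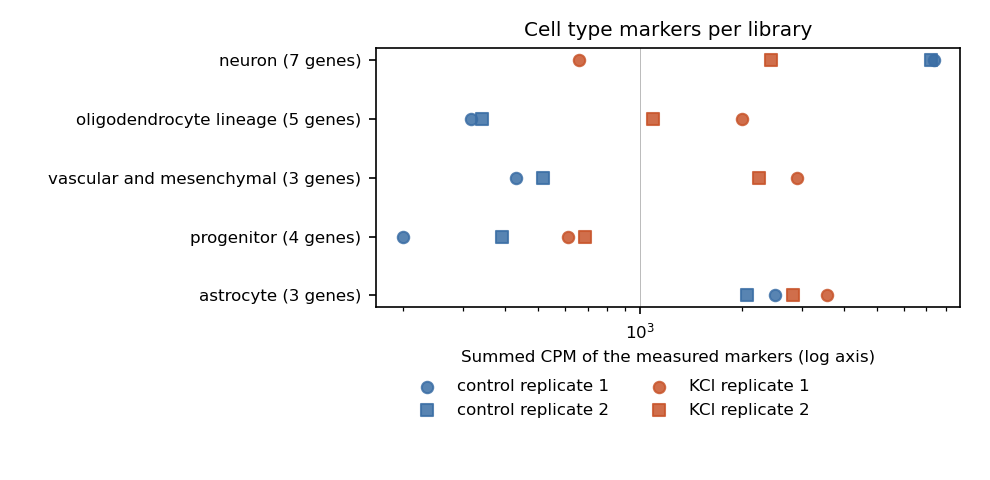
Summed CPM of the measured markers of 5 cell types (horizontal log axis), 1 point per library; circles are replicate 1, squares replicate 2, blue control and orange KCl. Both KCl libraries lie below both control libraries for neuron markers (661 and 2434 against 7367 and 7241) and above them for the 4 other lists.

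Levels were compared first. A gene's level is the CPM of its best-covered event, with both forms summed, because events are what the tables count; it is compared only for the same gene between libraries. In the KCl libraries the glucose transporters Slc2a3 and Slc2a6, the vesicular amino acid transporter Slc6a17 and the mitochondrial glutamate carrier Slc25a22 were 2.96 to 5.37 times lower, and the lactate transporter Slc16a1, the astrocytic glutamate transporter Slc1a3 and the cationic amino acid transporter Slc7a2 were 2.87 to 3.26 times higher, each without overlap between the groups. In such bulk RNA, fewer cells of a type and less RNA per cell cannot be told apart. No solute carrier gene passed the test: 0 of 104 had a Benjamini-Hochberg adjusted p under 0.05 in edgeR's quasi-likelihood test over 6114 genes, where the background was 0%. The estimate was over 0 for 57 genes (54.8%, background 52.5%). At an unadjusted p under 0.05 there were 20 genes (19.2%, background 12.2%), 9 higher (8.65%, background 4.94%) and 11 lower (10.6%, background 7.26%). The control and KCl libraries did not overlap for 51 genes (49%, background 43.2%), 26 with both KCl libraries higher (25%, background 22.1%) and 25 with both lower (24%, background 21.2%). The median log2 difference, KCl over control, was 0.07 over the 104 genes and 0.04 over all genes, and the median absolute difference 0.48 and 0.45. DESeq2 called 3 solute carrier genes (2.88%, background 0.9%), 0 higher (background 0.18%) and 3 lower in KCl (background 0.72%): Slc2a6 (adjusted p = 0.0207), Slc6a17 (0.0238) and Slc2a3 (0.0364). limma called 0. The calls of edgeR's test depended on single libraries: without KCl replicate 2 it called 7 solute carrier genes (Slc2a3, Slc16a1, Slc2a6, Slc6a17, Slc2a4, Slc25a22 and Slc12a4) and 298 genes in all, without control replicate 2 it called Slc2a4 and 20 in all, and without control replicate 1 or KCl replicate 1 no solute carrier. The count at an unadjusted p under 0.05 was 13 without either control library and 7 without KCl replicate 1. The genes chosen for the smallest p-values with groups apart had adjusted p from 0.352 to 0.502 in edgeR's test. Other genes named below reached higher values in that test, such as 0.99 for Slc1a2. The values below therefore describe these libraries.

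**Figure D2:**
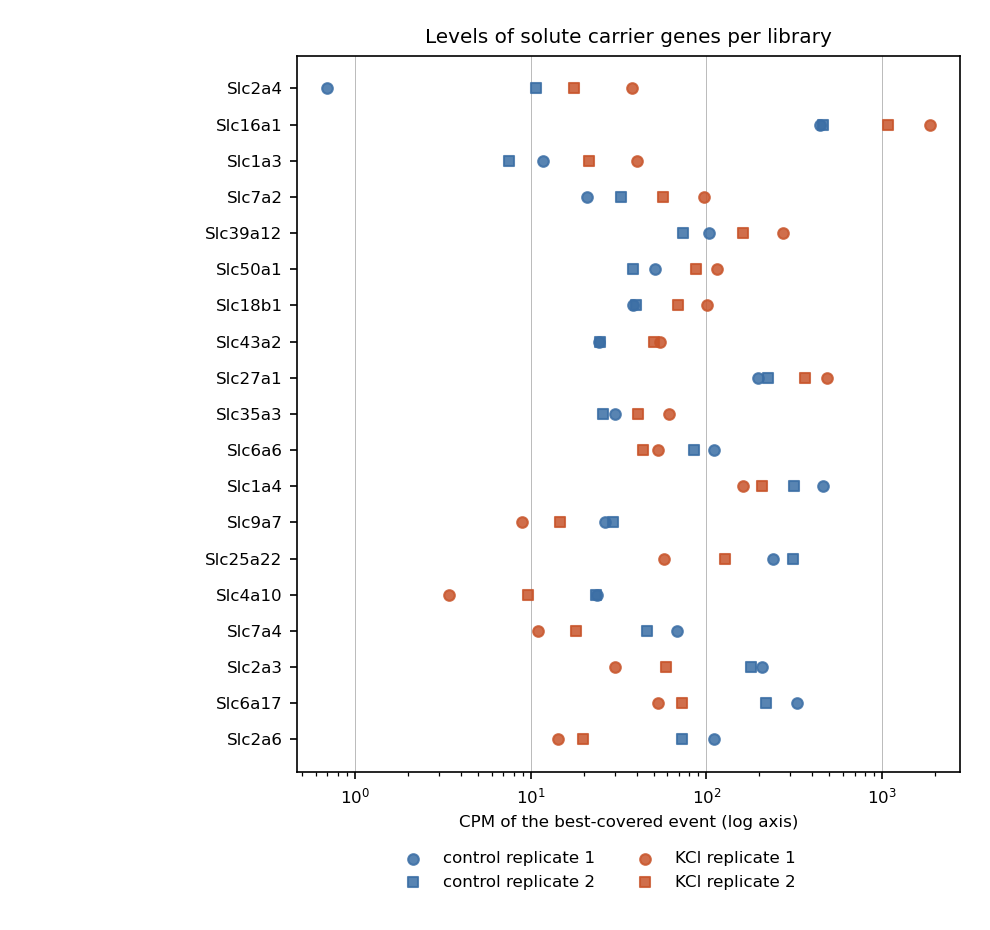
CPM of the best-covered event (horizontal log axis) of solute carrier genes with the smallest unadjusted p among those whose groups do not overlap, 1 point per library (circles replicate 1, squares replicate 2, blue control, orange KCl). Genes are ordered by log2 difference, from Slc2a4 (2.19) at the top to Slc2a6 (-2.41) at the bottom; control replicate 1 of Slc2a4, at 0.697 CPM, lies apart from the other control library.

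The stretch of 250 bases before the RefSeq start (GRCm38.p6, the build mm10) is shown for 2 genes that were lower and 2 that were higher in KCl, as the part next to the start where promoter-proximal factors bind. Capitals mark TGACG, the core of the site bound by CREB, a factor that calcium entry activates. They also mark TATAAA, the core sequence of the TATA box, and each was searched on either strand. Slc2a6 lies at chr2:27027999-27028248 and Slc6a17 at chr3:107518019-107518268, both on the minus strand; Slc6a17 has 2 entries, of which the upstream one is shown. Slc16a1 lies at chr3:104638414-104638663 on the plus strand, and Slc1a3 at chr15:8710808-8711057 on the minus strand.
Slc2a6: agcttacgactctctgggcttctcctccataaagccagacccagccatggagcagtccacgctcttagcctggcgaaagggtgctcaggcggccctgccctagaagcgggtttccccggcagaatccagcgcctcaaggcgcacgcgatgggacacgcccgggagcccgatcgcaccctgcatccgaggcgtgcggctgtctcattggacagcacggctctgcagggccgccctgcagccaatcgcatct
Slc6a17: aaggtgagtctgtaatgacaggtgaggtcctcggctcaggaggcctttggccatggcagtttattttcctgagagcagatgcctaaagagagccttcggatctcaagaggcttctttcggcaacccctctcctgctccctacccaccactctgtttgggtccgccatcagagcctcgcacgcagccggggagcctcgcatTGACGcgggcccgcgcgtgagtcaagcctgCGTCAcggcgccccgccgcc
Slc16a1: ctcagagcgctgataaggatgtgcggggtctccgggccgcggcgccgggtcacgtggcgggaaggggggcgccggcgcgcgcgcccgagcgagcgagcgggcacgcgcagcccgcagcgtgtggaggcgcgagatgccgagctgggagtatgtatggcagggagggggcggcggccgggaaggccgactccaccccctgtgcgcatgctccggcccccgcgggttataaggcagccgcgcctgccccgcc
Slc1a3: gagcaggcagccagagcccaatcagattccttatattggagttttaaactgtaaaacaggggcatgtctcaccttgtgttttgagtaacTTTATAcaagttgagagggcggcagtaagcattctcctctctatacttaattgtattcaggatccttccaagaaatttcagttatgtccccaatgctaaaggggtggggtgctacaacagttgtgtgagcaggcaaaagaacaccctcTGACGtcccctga
The Slc6a17 window shown holds 2 TGACG matches, and its other entry, at chr3:107500741-107500990, holds neither motif. Slc1a3 holds 1 TGACG and 1 TATAAA. The latter reads TTTATA, so it lies on the opposite strand, and it is nearer to the far end of the window than to the start. Such a match does not mark a TATA box. Slc2a6 and Slc16a1 hold no exact match to either motif. RefSeq promoter entries were found for 79 of the 104 genes, 114 entries in all. Of these 22.8% held TGACG, against 17.8% of 32851 promoter windows of this length; 5.26% held TATAAA, against 12.4%; and 0.877% held the full palindrome TGACGTCA, which contains TGACG, against 1.55%. A match is a string of letters, with no measurement of binding here.

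Among the glucose transporters, Slc2a3 (GLUT3, the main carrier of neurons) had 208 and 179 CPM in control replicates 1 and 2 and 30.1 and 58.9 in KCl replicates 1 and 2, with a log2 difference of -2.11 (SE 0.49). Slc2a6 (GLUT6) had 111 and 73 in control and 14.4 and 19.8 in KCl, with a log2 difference of -2.41 (SE 0.49). Both were low in both KCl libraries. Slc2a1 (GLUT1, the carrier of the blood-brain barrier and of glia) lay the other way, at 169 and 106 in control and 262 and 187 in KCl (0.71, SE 0.45), and its groups did not overlap. Slc2a4 (GLUT4, the insulin-responsive carrier) had 0.697 and 10.7 in control and 37.7 and 17.6 in KCl (2.19, SE 0.94), where control replicate 1 rests on 1 read; without control replicate 2 its adjusted p was 0.0429 and its log2 difference 5.15 in edgeR's test, with the lone control library assumed to vary like the KCl group. Slc50a1 (SWEET1, a sugar efflux carrier) was at 50.9 and 38.1 in control and 115 and 86.6 in KCl (1.18, SE 0.44). Slc2a8 and Slc45a4 overlapped between the groups, with log2 differences of -0.14 and 0.12. Summed over the 7 genes the role had 644 and 485 CPM in control and 569.7 and 446 in KCl, so the role as a whole overlapped although its members lay on both sides.

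Slc16a1 (MCT1), a proton-coupled carrier of lactate and ketone bodies, had 444 and 457 CPM in control and 1869 and 1071 in KCl (log2 difference 1.71, SE 0.43). KCl replicate 1 was the highest, and both KCl libraries were over both controls. Slc16a13 overlapped (-0.04). The sum of the 3 genes of the role, 837 and 829 in control against 2068 and 1291 in KCl, had a log2 ratio of the means of 1.01, and without Slc16a1 of -0.86.

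Of the 17 genes in the amino acid and transmitter uptake role, 3 were higher (background 4.94%) and 4 lower (background 7.26%) at an unadjusted p under 0.05. Slc1a3 (GLAST), which clears glutamate into astrocytes, had 11.8 and 7.51 CPM in control and 40.4 and 21.5 in KCl (log2 difference 1.68, SE 0.58). Slc1a2 (GLT-1), the other main astrocytic glutamate carrier, did not separate the groups, at 463 and 238 in control and 519 and 203 in KCl (0.04, SE 0.57): replicate 1 was the higher library of each group. Their best-covered events rested on few reads for Slc1a3 (14 to 59 a library) and on many for Slc1a2 (359 to 758). Slc1a4 (ASCT1), a carrier of serine and other small neutral amino acids, had 457 and 314 in control and 162 and 208 in KCl (-1.06, SE 0.42).

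Slc6a17 (NTT4), found on synaptic vesicles, had 328 and 218 CPM in control and 52.7 and 73 in KCl (log2 difference -2.11, SE 0.45). It belongs by number to the family of the sodium-coupled transmitter carriers. Slc6a6, the taurine carrier, had 110.1 and 85.3 in control and 52.7 and 43.6 in KCl (-1.02, SE 0.43). Slc6a8, the creatine carrier, had 125 and 111 in control and 270.5 and 136 in KCl (0.79), and Slc6a9 (GlyT1), the glycine carrier, 46 and 32.2 against 27.4 and 20.9 (-0.69). So within this family the members lay on both sides of 0.

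The cationic and neutral amino acid carriers of family 7 split in the same way. Slc7a2 (CAT2), which takes up arginine and lysine, had 20.9 and 32.7 CPM in control and 97.2 and 56.6 in KCl (log2 difference 1.51, SE 0.51). Slc7a4 had 68.3 and 46.1 in control and 11 and 18.1 in KCl (-1.96, SE 0.52). Its level was read from a retained-intron event, in which unspliced RNA also counts, as were those of Slc2a4, Slc4a3, Slc6a9, Slc7a3 and Slc29a1. Slc7a3 (CAT3), a cationic carrier of neurons, had 31.3 and 19.9 in control and 5.48 and 13.6 in KCl (-1.40), and Slc7a5 (LAT1), the large neutral amino acid carrier, 95.4 and 121 against 60.3 and 82.1 (-0.61, SE 0.43). Slc43a2 (LAT4), another neutral amino acid carrier, had close replicates, at 24.4 and 24.7 in control and 54.1 and 50.4 in KCl (1.09, SE 0.44). Over the whole role the median log2 difference was -0.43 and the summed CPM, 2505 and 1787 against 2022 and 1437, overlapped.

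Of the cation-chloride cotransporters, Slc12a2 (NKCC1), which brings chloride into cells, had 11.1 and 22.5 CPM in control and 23.3 and 28.3 in KCl (log2 difference 0.60, SE 0.54). Slc12a5 (KCC2), the neuronal carrier that exports chloride, had 11.8 and 5.9 in control and 4.11 and 5.1 in KCl (-0.91, SE 0.62), from 6 to 17 reads a library. The groups did not overlap for either gene, and neither passed the test. The groups overlapped for Slc12a4 (KCC1), whose KCl replicate 1 stood at 134 against 34.5 in KCl replicate 2 and 44.6 and 16.1 in control (1.48, SE 0.77).

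The 3 sodium-calcium exchangers summed to 605 and 213 CPM in control and 240.3 and 114 in KCl, which overlap; without Slc8a2 the log2 ratio of the sums went from -1.21 to 0.06. Slc8a2 (NCX2), a plasma membrane sodium-calcium exchanger of brain, had 589 and 184 CPM in control and 214 and 92.8 in KCl (log2 difference -1.33, SE 0.67), so that control replicate 2 lay under KCl replicate 1. Slc24a2 (NCKX2), an exchanger that also carries potassium, had 6.27 and 9.12 in control and 2.74 and 3.4 in KCl (-1.31, SE 0.61), from 4 to 17 reads a library. Slc24a4 (NCKX4) overlapped (0.44). No event unique in both tables was found for Slc8a1, Slc8a3 and Slc24a3.

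Among the acid-base carriers, Slc4a10 (NCBE), a sodium-driven bicarbonate carrier of neurons, had 23.7 and 23.6 CPM in control and 3.42 and 9.62 in KCl (log2 difference -1.82, SE 0.62). The level of Slc4a10 rests on 34 and 44 reads in control and 5 and 17 in KCl. The other 4 genes of its role overlapped between groups: the anion exchanger Slc4a3 (AE3; 232 and 71.4 against 197 and 60.6) differed far more between replicates than between groups. Slc4a4 (NBCe1), a bicarbonate carrier prominent in astrocytes, had 44.6 and 117 in control and 68.5 and 125 in KCl (0.26, SE 0.58). Of the sodium-proton exchangers, Slc9a7 (NHE7, an exchanger of the trans-Golgi network) had 26.5 and 29.5 in control and 8.9 and 14.7 in KCl (-1.23, SE 0.52), while Slc9a5 and Slc9a8 overlapped.

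Mitochondrial carriers of family 25, 19 genes, had a summed CPM of 3002 and 2894 in control and 3380.4 and 2912 in KCl. The phosphate carrier Slc25a3 had the most reads, with 1331 and 1239 in control and 1860.3 and 1486 in KCl (log2 difference 0.38, SE 0.38), and its groups did not overlap. Slc25a22, which brings glutamate into mitochondria, had 239 and 311 in control and 57.5 and 128 in KCl (-1.56, SE 0.51), and Slc25a14 had 73.1 and 50.4 against 21.2 and 35.1 (-1.13). The median of the 19 genes was 0.10, and 14 of them overlapped between the groups. Over all genes, 43.2% did not overlap.

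Zinc carriers, 10 genes, had a median log2 difference of 0.35 and overlapping sums (1820.3 and 1466 against 2115 and 1578). Slc39a12 (ZIP12), a zinc importer of brain, had 103 and 73.5 CPM in control and 270.5 and 161 in KCl (1.29, SE 0.46), and was the only gene of the role at an unadjusted p under 0.05. Slc39a7 (ZIP7), which releases zinc from the endoplasmic reticulum, had the most reads and overlapped (0.48, SE 0.49). Slc39a14 (ZIP14) was at 23.7 and 41.9 in control and 46.6 and 42.5 in KCl (0.43, SE 0.48). All 4 genes for other metals and heme had estimates over 0 (background 52.5%), from 0.10 to 0.58. The heme carrier Slc48a1 (HRG1) was highest, with 279 and 242 CPM in control and 429 and 352 in KCl.

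Among the organic ion, vitamin, lipid and other carriers, 5 of 12 genes had both KCl libraries higher and 5 both lower. Of the 10 genes of family 35, the nucleotide sugar carriers by role, 3 had both higher and 1 both lower. Over all genes these shares were 22.1% and 21.2%. The fatty acid carrier Slc27a1 (FATP1) had 195 and 225 CPM in control and 487 and 363 in KCl (log2 difference 1.02, SE 0.40). Slc18b1, the vesicular polyamine carrier, had 38.3 and 39.7 against 101 and 68.5 (1.12, SE 0.44). Slc35a3, which carries UDP-N-acetylglucosamine into the Golgi, had 30 and 25.8 against 60.9 and 40.8 (0.87, SE 0.46). Slc22a17, a receptor for lipocalin-2 and the best-covered gene among the organic ion carriers, had 919 and 1267 against 623 and 836 (-0.58, SE 0.40). The 10 genes of family 35, put in the nucleotide sugar role by number, had estimates over 0 in 8 cases (background 52.5%). Their median was 0.33, and their summed CPM, 688 and 509 in control and 860 and 609 in KCl, overlapped. Slc35g1, with 0.697 and 2.15 against 13 and 3.96 (2.43, SE 0.88), was the one at an unadjusted p under 0.05, from 1 to 19 reads a library. The only nucleoside carrier measured, Slc29a1, and the only sugar phosphate carrier, Slc37a3, differed by -0.12 and -0.09 and overlapped. Of the 3 genes that are no transporters, Slc9a3r2 had 20.9 and 30.6 against 13 and 14.2 (-0.92), Slc4a1ap 58.5 and 60.6 against 47.2 and 43 (-0.40), and Slc7a6os overlapped (0.07).

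**Figure D3:**
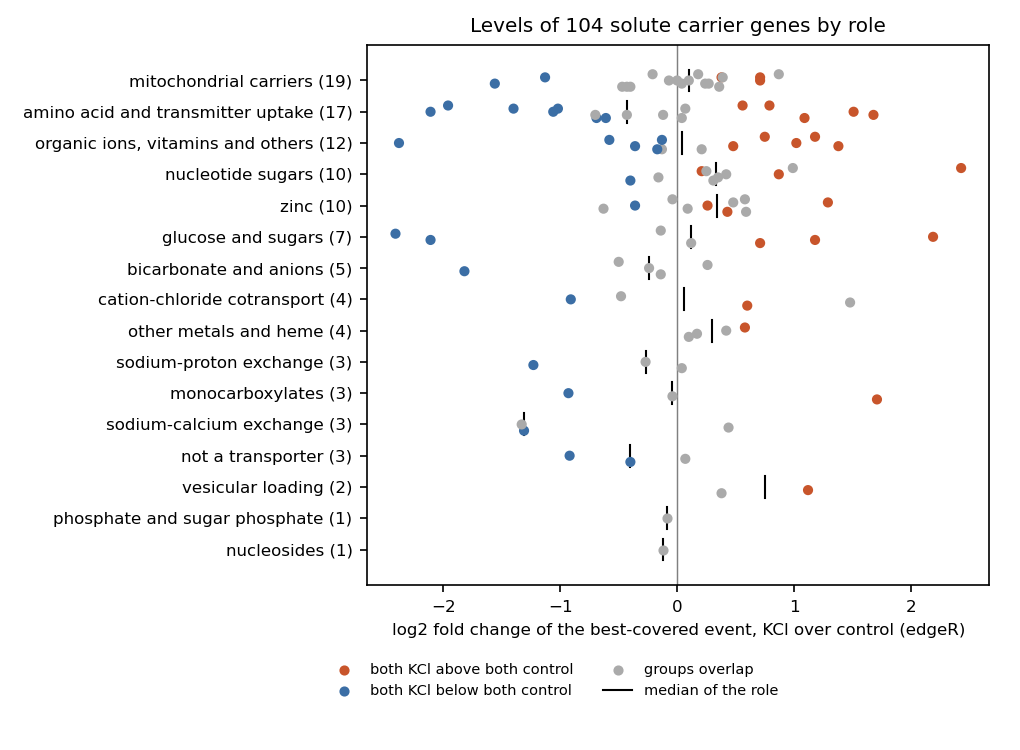
log2 fold change of the best-covered event, KCl over control (horizontal axis), of each of the 104 solute carrier genes, by role with the number of genes in brackets; orange and blue points have both KCl libraries above or below both control libraries, grey points overlap, and a black line marks the role's median. Roles with 4 or more genes hold genes on both sides of 0 except other metals and heme, whose 4 genes lie between 0.10 and 0.58.

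The pumps that build the gradients these carriers use were taken from a list of 41 ATP-driven transport genes, in which organic anion carriers of the Slco genes were included. Of these, 29 had an event: 1 was higher (background 4.94%) and 6 were lower (background 7.26%) at an unadjusted p under 0.05, 0 passed after adjustment in edgeR's test, and the median log2 difference was -0.25. The plasma membrane calcium pump Atp2b2 had 215 and 254 CPM in control and 28.1 and 70.8 in KCl (-2.24, SE 0.54). Atp2b3, another such pump, had 62.7 and 92.8 in control and 12.3 and 17.6 in KCl (-2.37, SE 0.49). Abca1, which exports cholesterol, had 92 and 100.3 in control and 305 and 183 in KCl (1.34, SE 0.44). Summed, the list had 7834 and 7713 in control and 5929.5 and 5585 in KCl.

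Splicing was described by the inclusion read share, which is the percentage of an event's reads that come from the inclusion form. It is not a percent spliced in, because the lengths over which the forms collect reads were not used, and it is compared only for the same event. The smallest p-values were those of a Slc24a4 form with an alternative 5′ splice site, a 48-base exon of Slc12a2 and 2 overlapping exons of Slc45a4, all with higher shares in both KCl libraries. Lower shares in both were found for a 105-base exon of Slc38a10, by few percentage points, and an alternative 5′ site of Slc9a8. None passed the test: 0 of 159 tested solute carrier events had a Benjamini-Hochberg adjusted p under 0.05 in edgeR's quasi-likelihood test over 10088 events, where the background was 0%, and the smallest was 0.143. DESeq2 and limma also called 0. The estimate was over 0 for 84 events (52.8%, background 51.6%). An unadjusted p under 0.05 was found for 20 of the 159 (12.6%, background 9.21%), 13 with a higher share in KCl (8.18%, background 4.24%) and 7 with a lower one (4.4%, background 4.97%). That count was 10 without control replicate 1, 7 without control replicate 2 and 7 without KCl replicate 1, and DESeq2 gave 12. The groups did not overlap for 57 (35.8%, background 40.7%). The median log2 odds ratio of inclusion, KCl over control, was 0.07, and 0.04 over all events tested.

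Of the 187 events, 124 were cassette exons (66.3%, against 64.6% of all events), 24 retained introns, 17 alternative 3′ sites, 12 alternative 5′ sites and 10 mutually exclusive exons. Between 1 and 8 events fell in a gene, 58 genes having 1 and Slc38a10 having 8. Events of a gene can share reads. All 187 lay within the RefSeq span of their gene, and which exon of which transcript they are was not analysed here. The 28 events that were not tested had under 1 read of a form on average; 23 of them had a mean share of 95% or more, 4 of 5% or less and 1 between.

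The length of a cassette exon is a multiple of 3 where its inclusion keeps the reading frame. Of the 124 solute carrier cassette exons 48 were (38.7%, exact 95% binomial interval 30.1 to 47.9), against 46.2% of all 7631. Of the 60 with a mean share between 5% and 95%, 24 were (40%, interval 27.6 to 53.5), against 52.3% of all 3535 such exons. Exons of a gene can overlap, so they are not independent. The shares themselves were about as reproducible as elsewhere: over 50 such solute carrier events of any type with at least 20 reads in every library, the median absolute difference was 5.6 percentage points between the control libraries, 6.67 between the KCl libraries and 4.56 between the group means. Over all 3724 such events it was 5.99, 6.66 and 5.21. A group mean averages 2 libraries, so the last of these varies less than a difference between single libraries.

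**Figure D4:**
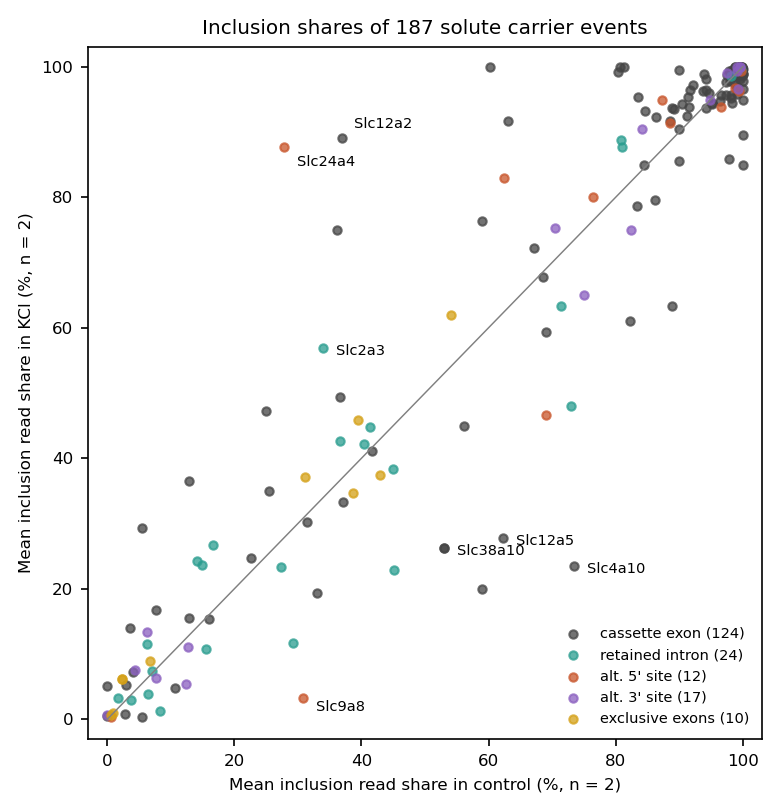
Mean inclusion read share in control (horizontal axis, %) against KCl (vertical axis, %) of all 187 solute carrier events, 2 libraries a group, coloured by event type with the number of events in brackets; the grey line marks equal shares. Slc24a4 and Slc12a2 lie far above the line (27.8% and 36.9% against 87.7% and 89.1%), Slc9a8 and Slc4a10 below it; Slc12a5 and Slc38a10 lie below it with groups that overlap.

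Slc24a4 codes for NCKX4, which moves calcium and potassium out of the cell in exchange for sodium. Its alternative 5′ splice site event lies at chr12:102230351-102230493. Inclusion was 21.4% and 34.2% of 14 and 38 reads in control replicates 1 and 2, and 94.1% and 81.2% of 34 and 32 reads in KCl replicates 1 and 2. The exact 95% binomial intervals, which cover counting error only, reach 50.8% and 51.4% at most in control and 80.3% and 63.6% at least in KCl. The log2 odds ratio was 4.10 (SE 1.02), with an adjusted p of 0.143 in edgeR's test. In the authors' deposited table the FDR of this event was 0.000412 in replicate 1 and 0.109 in replicate 2.

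Slc12a2 holds a 48-base cassette exon at chr18:57934951-57934998; forms of NKCC1 with and without a short alternative exon are known in brain. Its share was 50% and 23.8% of 16 and 42 reads in control and 94.1% and 84% of 34 and 50 reads in KCl. Both KCl shares were over both control shares, though the interval of control replicate 1 (24.7% to 75.3%) met that of KCl replicate 2 (70.9% to 92.8%). The log2 odds ratio was 3.91 (SE 0.98), with an adjusted p of 0.143 in edgeR's test. The authors' deposited table gave an FDR of 0.204 in replicate 1 and 2.89e-05 in replicate 2.

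In the same family, a 15-base exon of Slc12a5 (chr2:164996864-164996878) was at 88.2% and 36.4% in control and 0% and 55.6% in KCl, from 6 to 17 reads a library. The controls alone spanned most of that range, and the 0 of 6 reads in KCl replicate 1 allows a share of up to 45.9% (upper bound of the exact 95% interval).

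Bicarbonate carriers had 9 events, all tested and all with a mean share between 5% and 95%. Slc4a10 had 2 cassette exons lower in KCl: the 90-base exon at chr2:62244352-62244441 with 76.5% and 70.5% in control and 0% and 47.1% in KCl, and the 39-base exon at chr2:62317476-62317514 with 64.7% and 53.3% against 0% and 40%. Both rest on 5 reads in KCl replicate 1. The log2 odds ratios were -2.48 (SE 1.16) and -1.89 (SE 1.16). A 108-base exon of Slc4a7 (NBCn1, chr14:14793950-14794057) was at 95.7% and 100% in control and 84.2% and 87.5% in KCl (-3.41, SE 1.42). The 97-base exon of Slc4a4, in contrast, had close shares in all 4 libraries, at 23.4% and 22% against 25% and 24.4%.

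In the sodium-proton exchangers the alternative 5′ splice site of Slc9a8 (NHE8, chr2:167424119-167424649) had a share of 22.2% and 39.5% in control and 0% and 6.67% in KCl, from 18 to 38 reads a library (log2 odds ratio -3.51, SE 1.25). The upper bound of the exact interval for 0 of 24 reads in KCl replicate 1 is 14.2%. A 60-base exon of Slc9a7 was at 13.2% and 12.7% in control and 53.8% and 19.2% in KCl, where KCl replicate 1 had 13 reads.

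**Figure D5:**
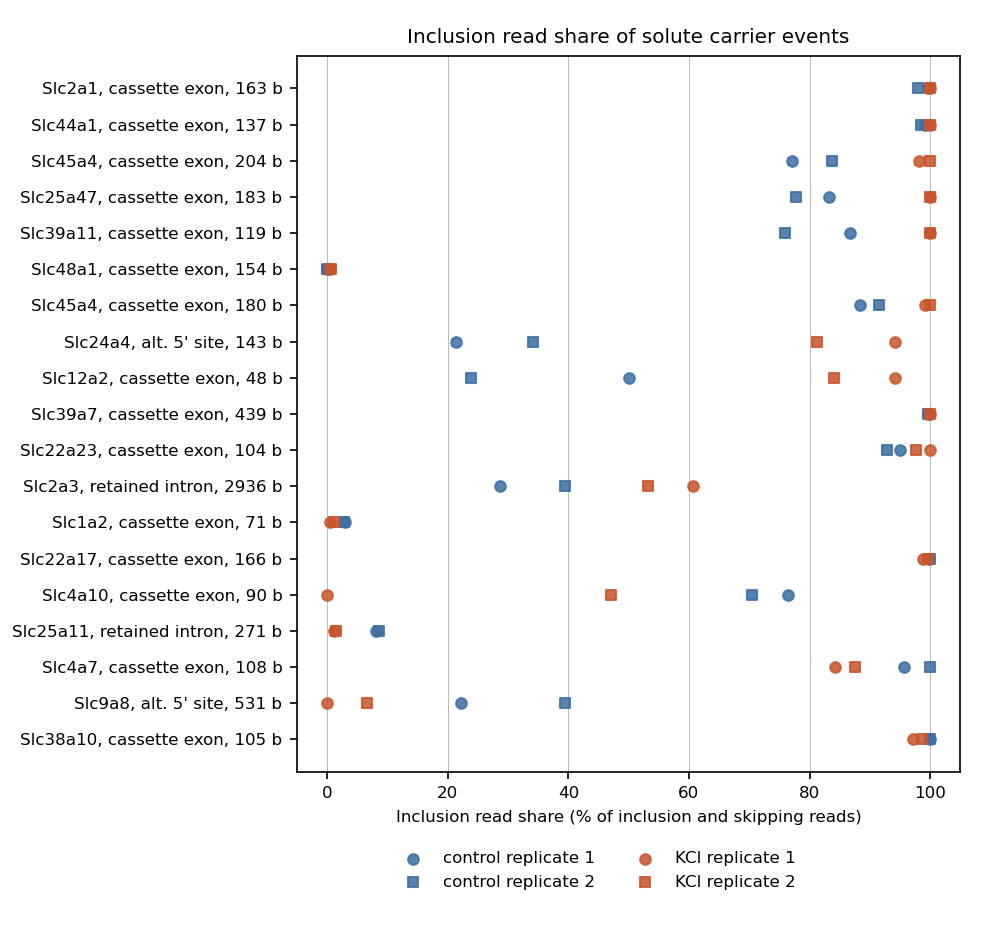
Inclusion read share (horizontal axis, %) of solute carrier events with the smallest unadjusted p among those whose groups do not overlap and with a mean of at least 10 reads, 1 point per library (circles replicate 1, squares replicate 2, blue control, orange KCl); the length is that of the first pair of coordinates in the tables. Events are ordered by log2 odds ratio, from Slc2a1 (5.14) to Slc38a10 (-5.42); these events at the ends lie near 100% in all 4 libraries, while Slc24a4, Slc12a2 and Slc4a10 differ by far more.

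The events of that plot are not quite those at an unadjusted p under 0.05 in edgeR's test. The plot leaves out an event not reported here and a Slc7a7 exon with under 10 reads on average. It also holds a Slc25a47 exon just over that threshold. Some of the largest log2 odds ratios came from shares near a limit. A 163-base exon of Slc2a1 was at 99.6% and 98% in control and 100% in both KCl libraries (5.14, SE 1.87), and a 105-base exon of Slc38a10 at 100% in both controls and 97.1% and 98.6% in KCl (-5.42, SE 1.64). Slc44a1, a choline carrier, had a 137-base exon at 99.2% and 98.5% against 100% in both KCl libraries. A 154-base exon of Slc48a1 was read 0 times in control, which allows a share of up to 0.916% and 0.815% (upper bounds of the exact 95% intervals), and made up 0.479% and 0.643% in KCl. In these 4 events nearly all reads were of the same form in all libraries.

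Sugar and metabolite carriers also held events with wider differences. In Slc45a4, 2 overlapping cassette exons that share their end at chr15:73587724 were at 77.1% and 83.7% against 98.1% and 100% (204 bases) and at 88.3% and 91.5% against 99.1% and 100% (180 bases). They share reads and are no independent pair; their adjusted p was 0.186 and 0.209 in edgeR's test. The retained-intron event of Slc2a3, a region of 2936 bases at chr6:122737058-122739993, had 28.6% and 39.5% of 238 and 332 reads in control and 60.6% and 53.2% of 66 and 124 reads in KCl (1.35, SE 0.64). The total reads of that event were lower in both KCl libraries, in the direction of the level of this gene. In the oxoglutarate carrier Slc25a11 a retained intron had 8.14% and 8.54% in control and 1.16% and 1.41% in KCl (-2.67, SE 1.09), 1 inclusion read in each KCl library.

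Among the transmitter carriers, a 71-base exon of Slc1a2 (chr2:102780717-102780787) had 2.95% and 2.8% in control and 0.533% and 1.14% in KCl, of 375 to 786 reads a library (log2 odds ratio -1.76, SE 0.82). This is a minor form in all libraries. The 102-base exon of Slc1a3 (chr15:8687711-8687812) had 29.4% and 21.4% in control and 30.5% and 39.5% in KCl (0.59, SE 0.93). Its total reads were 17 and 14 against 59 and 38. The taurine carrier's 44-base exon overlapped, at 88.3% and 94.1% against 93.3% and 91.7%.

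Slc38a10 had the most events. A 24-base and an 87-base cassette exon that start together at chr11:120108467 carry the same counts and are 1 measurement: 34.5% and 71.4% in control and 5.26% and 47.1% in KCl, so control replicate 1 lay under KCl replicate 2. The authors' deposited tests compare KCl with control within a replicate number; in the authors' deposited table the FDR of these exons was 0.000392 and 0.00515 in replicate 1 and 1 for both in replicate 2. With the event of Slc24a4 these made up the 3 solute carrier events with a deposited FDR under 0.05 in replicate 1 (1.6%, background 2.89%). Replicate 2 had 1, that of Slc12a2 (0.535%, background 1.29%), and 0 had it in both (background 1.03%).

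The phosphate carrier and ZIP14 are both known for a choice between alternative exons. Of the 10 mutually exclusive exon events 8 were tested, and 0 of them had an unadjusted p under 0.05 in edgeR's test. The background over events of all types was 9.21%. In Slc25a3 the form counted as inclusion made up 1.05% and 0.736% in control and 0.847% and 1.22% in KCl, of 1910 to 2717 reads a library. This event pairs the exons at chr10:91121922-91122043 and chr10:91122108-91122331, and its inclusion counts equal those of the latter exon. Another event pairs the former exon with that at chr10:91122207-91122331 and shares nearly all of the reads. Its shares were 0.683% and 0.521% in control and 0.554% and 0.804% in KCl. In Slc39a14 the form counted as inclusion made up 14.7% and 47.4% in control and 26.5% and 48% in KCl, so the replicates differed more than the groups. The exons of this event lie at chr14:70313601-70313770 and chr14:70315664-70315833. Which of them the inclusion form holds was not established here. Of the 23 tested retained introns, 2 were at an unadjusted p under 0.05 (background over all event types 9.21%), those of Slc2a3 and Slc25a11.

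The remaining named events were 2 zinc carrier exons and exons of Slc22a23, Slc22a17 and Slc25a47. The zinc carrier exons were in Slc39a11 (119 bases, 86.7% and 76% against 100% in both KCl libraries) and Slc39a7 (439 bases, 99.6% in both controls against 100% and 99.9%). That of Slc39a11 had 9 to 25 reads a library, and the exact 95% intervals in KCl reach down to 66.4% and 73.5%. The exon of Slc22a23 (104 bases) was at 95% and 92.8% against 100% and 97.7%. That of Slc22a17 (166 bases) was at 99.8% and 99.9% against 98.8% and 99.7%. That of Slc25a47 (183 bases) was at 83.3% and 77.8% against 100% in both KCl libraries, from 7 to 14 reads. The adjusted p of these remaining events ranged up to 0.548 in edgeR's test. In the ATP-driven transport list, 63 events were tested and 0 called, 2 being higher (background 4.24%) and 5 lower (background 4.97%) at an unadjusted p under 0.05.

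No value is given for the vesicular glutamate and GABA carriers Slc17a6, Slc17a7 and Slc32a1, the neuronal glutamate carrier Slc1a1, the synaptic zinc carrier Slc30a3, or Slc3a2, Slc12a7, Slc38a1 and Slc38a2, which were on the list of genes to describe and had no event with unique coordinates in both tables. A gene enters these tables through a spliced event with reads, so its absence says nothing of its level.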

How the data were processed

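RNA of 2 control and 2 KCl libraries was analysed; the H3K9me3 ChIP libraries of the series were not analysed here. Per the file headers, the authors deposited, for each event and library, whole-number counts of inclusion reads and of skipping reads. The authors also deposited a p-value and an FDR per event, from a comparison of KCl with control under 1 replicate number. The submitters' processing notes list mm10 as the build, and CASAVA 1.7, TopHat2, MACS2 and BWA 0.7.12 as tools, with no roles. Which program counted the events, and with what annotation, is not stated.

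Rows were matched between the tables by gene, coordinates and event type, with starts converted to count from 1. Rows that share coordinates within a table (2634 of 19447 in replicate 1 and 3120 of 22703 in replicate 2, 35 and 47 of them solute carriers) were left out, since flanking exons are not listed. For splicing, the quasi-likelihood test of edgeR 4.0.16 (in R 4.3.3) took the 2 counts of each event, with terms for library, form and form in KCl; 10088 events averaged 1 read or more in both forms. Levels were tested with the same package on the best-covered event of each of 6114 genes, both forms summed, with TMM scaling and an average of 1 read or more. Standard errors are the estimate divided by the square root of its F statistic. Adjustment was Benjamini-Hochberg over all events or genes, with a threshold of 0.05. DESeq2 1.42.0, limma 3.58.1 (pseudocount 0.5 reads), other filters and scalings, equal coordinates summed, a replicate block and leaving out each library were alternatives. The fits were tested on simulated data.

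Named were up to 20 events and up to 10 genes per direction with the smallest unadjusted p, groups apart and an average of at least 10 reads, the best-covered gene of each role, and a list of carriers known in brain. A few of the items chosen this way are not reported here. Slc2a8, Slc4a1ap, Slc6a8, Slc6a9, Slc7a3, Slc9a3r2, Slc9a5, Slc16a13, Slc35g1, Slc25a14, the level of Slc24a4 and of Slc45a4, Atp2b2, Atp2b3, Abca1, and the events of Slc7a7, Slc9a7 and Slc38a10 given beside these fall outside that rule and were chosen after their values were seen, as was the role of Slc4a1ap. The members, roles and marker lists were chosen with earlier results of these data known. Promoter windows are from RefSeq (GRCm38.p6). Figures and tables were made with matplotlib 3.10.9, scipy 1.17.1, pandas 2.3.3 and numpy 2.4.6 in Python 3.11.15.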

Additional observations from a re-analysis of the deposited data

How the results depend on the processing

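For the single genes and events named, the alternatives gave 179 estimates for splicing and 260 for levels; 0 of either reversed direction, and 2 and 29 of them passed the threshold. With a replicate block, the splicing test called 167 events, or 1.66%, 2 of them solute carriers (Slc12a2, adjusted p = 0.014, and Slc24a4, 0.0231), and the level test 1240 genes, or 20.3%, 23 of them solute carriers (11 higher, 12 lower; 40 at an unadjusted p under 0.05). The labels do not say what a shared replicate number means; deviations of same-numbered libraries correlated at 0.636 over 5770 genes for levels and at 0.0573 over 10088 events for splicing, and 2 pairs do not establish a pairing. DESeq2 called 55 genes by level, 3 of them solute carriers, and gave 12 solute carrier events at an unadjusted p under 0.05; a minimum mean of 10 reads of each form, which tests fewer events, gave 4. Leaving out a library gave 7 to 19 such events, 0 to 298 genes called by level in all, 0 to 7 solute carrier genes called, and 7 to 17 at an unadjusted p under 0.05. Without its best-covered gene, the log2 ratio of summed levels was -0.59 for glucose and sugars, -0.86 for monocarboxylates, 0.00 for cation-chloride cotransport, 0.19 for other metals and heme, -0.18 for mitochondrial carriers, 0.42 for organic ions and others, and -0.54 for the genes that are no transporters. It went from -1.21 to 0.06 for sodium-calcium exchange, from -0.45 to -0.76 for sodium-proton exchange and from 0.17 to -0.03 for zinc. For other changes the cause was not tested. Reads limit the splicing results: solute carrier events had a median of 62.5 reads a library, and many named shares rest on fewer.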
